A study of Mus musculus with 10 samples.

Results

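Collagens are trimers of alpha chains, and 42 genes that encode such chains were measured among the 18193 genes of the array, on 82 probe sets. The members are the genes whose symbol in the platform annotation has the form of Col, a number, a and a number. Only probe sets annotated to a single gene were used, and a gene with several was represented by the one with the highest mean over all arrays. Col6a6 and Col28a1 had no such probe set and were not analysed. Of the 42 genes 8 were placed in the fibrillar class, 7 among the chains known from cartilage, 9 in the basement membrane class, 7 in the network class and 11 among the others. The mean signal of 30 members lay above the dimmest 40% of all genes, and the other 12 members are called dim below. The files used here hold no detection calls, so whether a dim signal exceeds background cannot be said.

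RNA came from metanephric mesenchyme of mouse kidneys at E11.5, the tissue around the ureteric bud that gives rise to nephrons and renal stroma. The mutant group is homozygous for loss of Wnt9b (Wnt9b-/-) and the control group consists of Wnt9b+/+ littermates according to the sample labels, whereas the series' design text calls the controls Wnt9b+/-. The mesenchyme was freed of the bud with trypsin and pancreatin, and each of the 5 arrays per group carried its own RNA pool of 25 to 30 mesenchymes. A value is therefore a mean over many embryos and over all cell types left in the dissected tissue. In such bulk tissue, fewer cells of a type and less RNA per cell cannot be told apart.

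Chains of the fibrillar class assemble into the banded fibrils of connective tissue, with type I and type III in most mesenchyme and type V setting fibril width. Type II, IX and XI chains form the fibrils of cartilage and are known targets of the transcription factor Sox9. Type IV forms the sheet of every basement membrane, and it is laid down as kidney mesenchyme turns into epithelium. Wnt9b is the signal of the ureteric bud that starts this conversion, and the comparison shows the collagen transcripts of mesenchyme that lacked it.

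Wnt9b itself gave log2 signals of 6.31 to 6.65 in wild type and 5.42 to 6.74 in the mutant, with overlap (difference -0.24, SE 0.24). Averaged over its probe sets the difference was -0.51. The position of its probes against the deletion is not known here, and the bud that makes it was dissected away to an unknown degree. Markers of the bud epithelium, a list that includes Wnt9b, still gave summed signals of 1725 to 2907 in wild type and 1233 to 3531 in the mutant. The Wnt9b values therefore check nothing about the labels. The 18S ribosomal RNA probe set at the 5' end read above 1000 on wild-type replicates 2 and 5 and mutant replicates 4 and 5 (high-18S arrays), and 92.4 to 321.9 on the other 6 (low-18S arrays). The Wnt9b difference was -0.76 in high-18S arrays and 0.11 in low-18S arrays. Mutant replicate 2 and wild-type replicate 3 had the brightest hybridisation controls. As markers of the labelled tissue, Six2, Eya1 and Foxd1 had mean log2 signals of 10.45, 10.93 and 11.18 in wild type. All 8 measured markers of nephron progenitors were lower in the mutant (median -0.70), with summed signals of 7318 to 8890 in wild type and 3458 to 6627 in the mutant.

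Below, log2 signal means log2(signal + 1), and a difference is the mean of the mutant arrays minus that of the wild-type arrays on this scale, so 1 is a doubling. Signals of different probe sets depend on their sequences and are not compared as amounts of transcript. The p-values measure the spread between RNA pools of one genotype. No collagen gene differed after adjustment over all genes, where limma called 1 of 18193 genes (0.0055%). At an unadjusted limma p under 0.05 stood 9 of the 42 collagen genes (21.4%), against 5.49% of all genes. Of the 30 that were not dim it was 7, against 5.16% of all such genes. Of the 9, 8 were higher in the mutant, beside 3.41% of all genes, and 1 was lower, beside 2.08%. Higher values were found for Col9a1, Col9a2, Col9a3, Col2a1, Col6a2, Col8a1, Col24a1 and Col25a1, and a lower value for Col13a1. Without mutant replicate 4 the count was 5 of 42, with 5.68% of all genes past the same threshold. In 4 members, Col9a1, Col9a2, Col6a2 and Col25a1, every mutant array exceeded every wild-type array, which held for 0.654% of all genes. Over the 42 members 27 were higher and 15 lower (median 0.08), while 54.9% of all genes were higher (median 0.02).

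**Figure D1:**
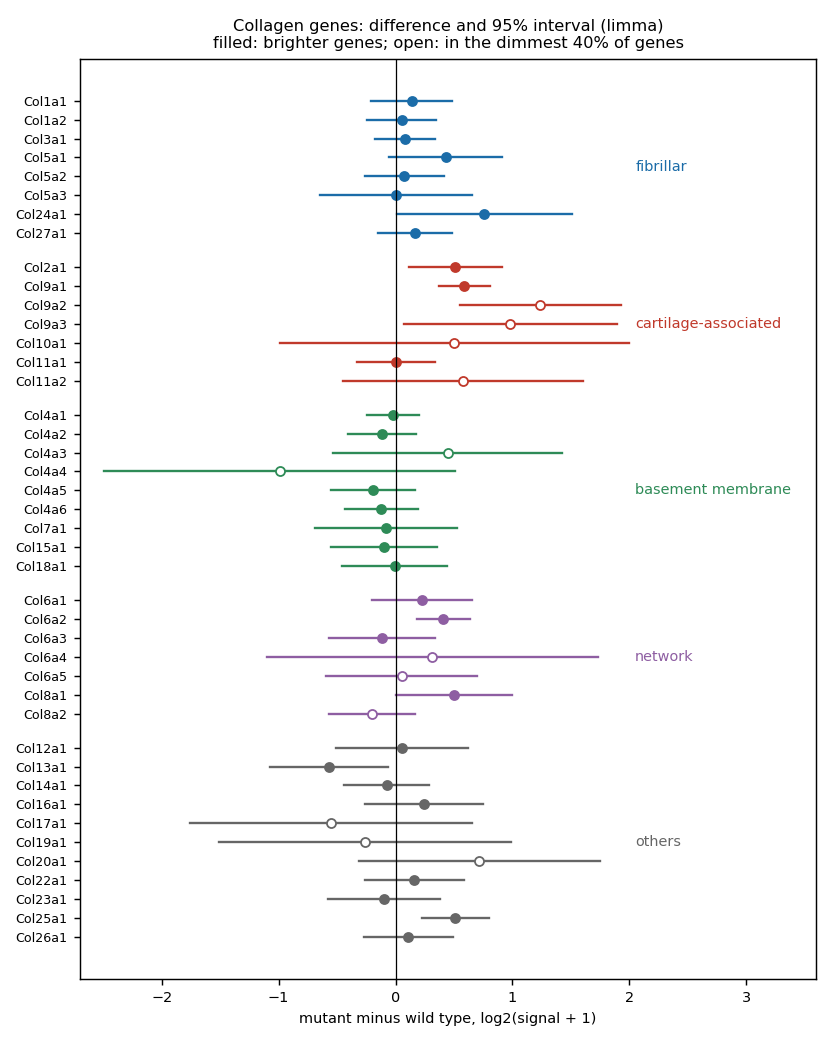
Difference between mutant and wild type for each of the 42 collagen genes, on the log2(signal + 1) scale, with its 95% interval from limma, grouped by class. Open symbols are dim genes. The 7 chains known from cartilage lie at or to the right of 0, the basement membrane chains lie close to 0 except for the dim Col4a3 and Col4a4, and the interval of Col9a1 is the narrowest of those that leave out 0.

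The cartilage-associated class stood highest, with all 7 members higher in the mutant and a median of 0.58. That median is the value of the dim Col11a2, which was at 0.37 with a pseudocount of 16. Of the 7, 4 had an unadjusted limma p under 0.05 (57.1%, against 5.49% of all genes) and 4 were dim. The class median was 0.42 in high-18S arrays, where Col10a1 was lower, and 0.75 in low-18S arrays, where Col11a1 was lower. Col9a1 encodes a chain of type IX collagen, which sits on the surface of type II fibrils. Its log2 signals were 11.16, 11.33, 11.25, 11.32 and 11.43 in wild-type replicates 1 to 5, and 11.83, 11.93, 11.81, 12.04 and 11.83 in mutant replicates 1 to 5. The groups stood apart by more than the range of either one. The mean went from 11.30 ± 0.10 (SD, n = 5) to 11.89 ± 0.10 (SD, n = 5), 1.50-fold higher (difference 0.59, SE 0.10, limma adjusted p = 0.283). That was the smallest adjusted p among the collagens. The second probe set of Col9a1 was higher by 0.82 (SE 0.21), with overlap between the groups. On the brightest probe set the high-18S arrays gave 0.55 and the low-18S arrays 0.61. It ran from 0.55 to 0.62 when each array was left out in turn, and its unadjusted p was under 0.05 in all 22 alternative settings. With an intensity trend and robust moderation in limma the adjusted p was 0.0499, just past the threshold. Over these settings the adjusted p ran from 0.0499 to 0.932, and without the dimmest 40% of genes it was 0.0866.

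The promoter windows of the 4 genes whose groups did not overlap are shown because no other member separated the groups on every array. Each is the 250 bases before a start listed by RefSeq in GRCm38.p6, read 5' to 3' on the gene's strand. Capitals mark matches, on either strand, to the TATA box (TATAAA), the GC box (GGGCGG), the CCAAT box (CCAAT), a SOX motif (AACAAT) and a TCF/LEF motif (CTTTGAT). Windows were found for 33 of the 42 members, and Col1a1, Col2a1, Col4a3, Col5a2, Col9a3, Col12a1, Col14a1, Col22a1 and Col26a1 had none in the table. Col9a1 has a pair of starts, the second of which lies within the gene. Col6a2 has a pair too, and the window of its second start, which overlaps the first and runs into transcribed sequence, is not printed (64.4% G and C, 3 GC boxes). The windows of Col9a1 are at chr1:24177360-24177609 for the first start and chr1:24194953-24195202 for the second, on the plus strand. That of Col9a2 is at chr4:121039316-121039565 on the plus strand, and that of the first Col6a2 start at chr10:76623631-76623880 on the minus strand. The Col25a1 window is at chr3:130180595-130180844 on the plus strand.
Col9a1, first start: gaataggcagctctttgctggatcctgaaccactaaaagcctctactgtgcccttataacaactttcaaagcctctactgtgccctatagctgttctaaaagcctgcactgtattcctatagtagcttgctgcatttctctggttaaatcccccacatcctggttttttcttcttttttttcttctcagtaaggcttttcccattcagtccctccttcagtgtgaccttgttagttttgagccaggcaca
Col9a1, second start: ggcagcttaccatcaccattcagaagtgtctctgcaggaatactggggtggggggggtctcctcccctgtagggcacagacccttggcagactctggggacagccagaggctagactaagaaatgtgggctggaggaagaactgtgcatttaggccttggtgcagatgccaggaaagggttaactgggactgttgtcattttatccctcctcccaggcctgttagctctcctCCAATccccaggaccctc
Col9a2: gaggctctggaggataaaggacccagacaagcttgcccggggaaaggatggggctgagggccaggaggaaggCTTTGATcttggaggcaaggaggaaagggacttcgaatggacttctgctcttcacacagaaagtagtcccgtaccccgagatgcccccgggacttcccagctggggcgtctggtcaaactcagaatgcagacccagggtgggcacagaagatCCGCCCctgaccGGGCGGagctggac
Col6a2, first start: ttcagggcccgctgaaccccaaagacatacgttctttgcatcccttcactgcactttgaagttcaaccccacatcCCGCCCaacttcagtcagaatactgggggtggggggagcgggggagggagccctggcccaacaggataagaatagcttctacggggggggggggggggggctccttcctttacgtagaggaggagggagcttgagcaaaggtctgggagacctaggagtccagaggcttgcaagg
Col25a1: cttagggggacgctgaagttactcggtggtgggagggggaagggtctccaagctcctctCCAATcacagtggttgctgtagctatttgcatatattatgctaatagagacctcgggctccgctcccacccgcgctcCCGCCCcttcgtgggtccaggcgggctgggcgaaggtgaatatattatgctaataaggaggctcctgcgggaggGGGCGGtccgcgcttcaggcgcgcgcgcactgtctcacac
The Col9a1 windows held no GC box and differed in base composition, with 43.6% G and C before the first start and 56.0% before the second. Col9a2 held the TCF/LEF motif, the only match among the 36 member windows, and this motif was found in 3.21% of all 32851 windows. GC boxes stood in 21 of the 36 member windows (58.3%) and in 32.7% of all windows, with a median G and C content of 59.0% in member windows and 52.4% in all. The TATA box stood in 13.9% of member windows and 12.4% of all, the CCAAT box in 36.1% and 33.8%, and the SOX motif in 2.78% and 9.42%. A match is a description of these letters and not evidence of binding.

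Col9a2 and Col9a3 encode the partner chains with which the Col9a1 product forms the type IX trimer, and both were dim. Col9a2 had log2 signals of 2.03, 2.07, 1.09, 2.09 and 1.48 in wild-type replicates 1 to 5, and 3.21, 3.88, 2.30, 2.78 and 2.79 in mutant replicates 1 to 5. The groups did not overlap, but the signals themselves were 1.13 to 13.7, among the lowest on the array. The mean went from 1.75 ± 0.45 (SD, n = 5) to 2.99 ± 0.59 (SD, n = 5) (difference 1.24, SE 0.31, limma adjusted p = 0.532). With a pseudocount of 16 the difference was 0.34, so its size rests on the scale. Col9a3 had log2 signals of 5.63, 6.46, 5.13, 4.51 and 5.66 in wild type and 6.29, 5.67, 5.98, 7.19 and 7.18 in the mutant. Wild-type replicate 2 lay above 3 of the mutant arrays, so the groups overlapped. The difference was 0.98 (SE 0.41, limma adjusted p = 0.882), with 0.71 and 0.15 on the further probe sets.

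Col2a1 encodes the type II chain, the main fibrillar collagen of cartilage, which is also made outside cartilage in the embryo. Its log2 signals were 9.91, 9.47, 9.28, 9.86 and 9.59 in wild type and 9.99, 10.62, 10.14, 10.04 and 9.87 in the mutant. Every mutant array but replicate 5 exceeded the highest wild-type array. The mean went from 9.62 ± 0.26 (SD, n = 5) to 10.13 ± 0.29 (SD, n = 5), 1.42-fold higher (difference 0.51, SE 0.18, limma adjusted p = 0.803). Col11a1, whose product starts type II fibrils, was at 0.01 (SE 0.15, 95% interval -0.33 to 0.34). High-18S arrays gave 0.35 and low-18S arrays -0.22 for Col11a1, and its second probe set gave 0.20 (SE 0.30). The dim Col11a2 and Col10a1, the latter a chain of hypertrophic cartilage, were at 0.58 and 0.50 with 95% intervals that spanned 0. Col10a1 had log2 signals of 1.88 to 2.88 in 4 mutant arrays and 5.80 in mutant replicate 2, and turned to -0.17 without that array.

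Markers of cartilage and its precursors stood beside these chains as follows. Of 13 measured genes 10 were higher in the mutant (median 0.35), while 54.9% of all genes were higher. An unadjusted limma p under 0.05 was found for 2 (15.4%, against 5.49% of all genes), and 10 of the 13 were dim. The 3 lower ones, all dim, were Comp at -0.28, Nkx3-2 at -0.27 and Matn3 at -0.16 (0.60 averaged over its probe sets). The summed signal of the list was 910.0 to 1143 in wild type and 1047 to 1557 in the mutant, with overlap. Pax1, a sclerotome transcription factor, differed by 1.32 (SE 0.44, limma adjusted p = 0.746) at dim signals, by 0.76 with a pseudocount of 16 and by 0.54 averaged over its probe sets. Matn4, a cartilage matrix protein, differed by 1.00 (SE 0.41) and by 0.68 with that pseudocount, with 0.14 in high-18S and 1.57 in low-18S arrays. Sox9 was at 0.44 (SE 0.25; 0.74 averaged over its probe sets), and Acan, the main cartilage proteoglycan, was dim and at 0.10 (SE 0.24). No marker was listed at 0, and their part in the values of the collagens was not tested.

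**Figure D2:**
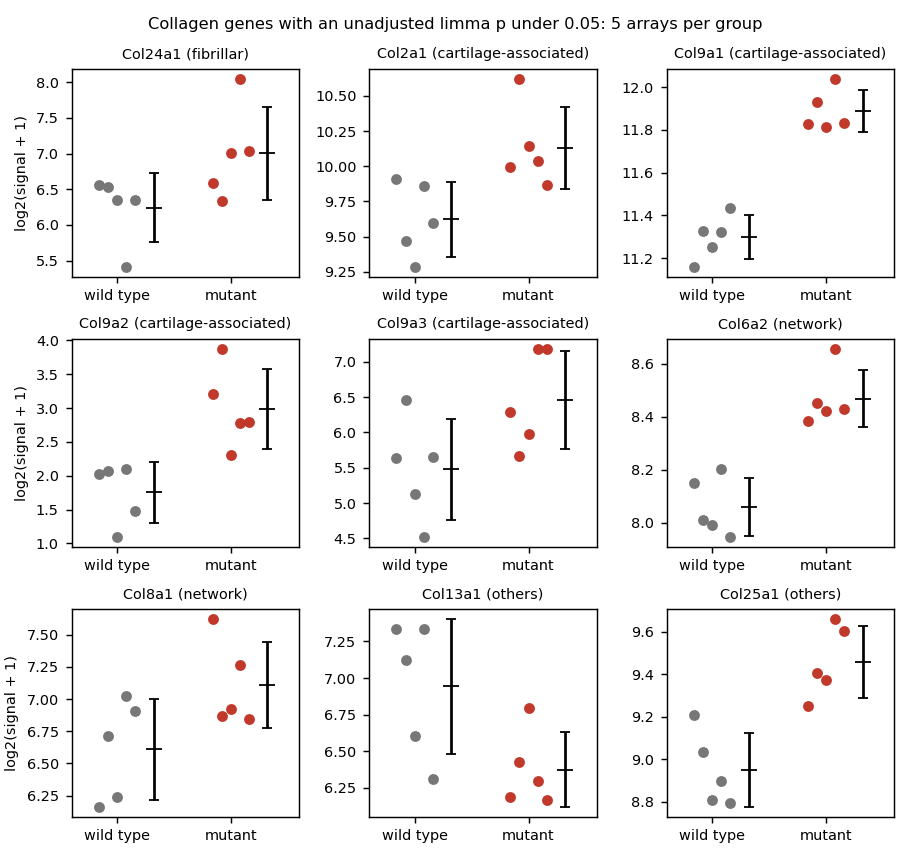
Log2(signal + 1) on each array for the 9 collagen genes with an unadjusted limma p under 0.05, with grey points for the 5 wild-type arrays and red points for the 5 mutant arrays. Bars give the mean and SD. The groups separate fully for Col9a1, Col9a2, Col6a2 and Col25a1, and overlap for the other 5 genes.

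The fibrillar class was higher in the mutant in all 8 members, by small amounts in most (median 0.11). Of the 8, 1 had an unadjusted p under 0.05 (12.5%, against 5.49% of all genes). The class median was 0.26 in high-18S arrays and 0.00 in low-18S arrays, where Col1a1, Col1a2, Col5a2 and Col5a3 were lower in the mutant, at -0.06, -0.08, -0.06 and -0.11. Col3a1, the type III chain, had log2 signals of 12.20, 12.28, 12.28, 12.15 and 12.33 in wild type and 12.23, 12.53, 12.05, 12.45 and 12.38 in the mutant, a difference of 0.08 (95% interval -0.18 to 0.34). Col1a2 gave 12.35, 12.01, 11.92, 12.05 and 11.74 in wild type and 12.15, 11.82, 12.10, 12.15 and 12.09 in the mutant, a difference of 0.05 (95% interval -0.25 to 0.35). Both sets of arrays overlapped widely. Col1a1, the other type I chain, was at 0.14 (95% interval -0.21 to 0.49), where high-18S arrays gave 0.43 and low-18S arrays -0.06.

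Among the type V chains, which limit fibril width, Col5a1 had log2 signals of 10.11, 9.88, 9.31, 9.34 and 9.68 in wild type and 9.67, 9.75, 10.25, 10.52 and 10.27 in the mutant. Mutant replicates 3, 4 and 5 exceeded all wild-type arrays, and the other mutant arrays lay within their range. The difference was 0.43 (SE 0.22, limma adjusted p = 0.941), and the further probe sets gave 0.38 and 0.53. Its partner Col5a2 was at 0.07 and Col5a3 at 0.00. Col24a1, a fibrillar chain known from developing bone, had log2 signals of 6.57, 6.53, 6.36, 5.41 and 6.35 in wild type and 6.59, 6.33, 7.01, 8.05 and 7.03 in the mutant. The groups overlapped, and the difference was 0.76 (SE 0.33, limma adjusted p = 0.902), or 0.50 without mutant replicate 4. Col27a1, a fibrillar chain of cartilage and other tissues, was at 0.17 (SE 0.14).

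The basement membrane class went the other way by small amounts, with 8 of 9 members lower in the mutant (median -0.10) and none at an unadjusted p under 0.05. Col4a1 encodes the main chain of the type IV sheet. It had log2 signals of 10.84, 10.82, 10.84, 10.91 and 10.78 in wild type and 10.78, 10.94, 10.69, 10.98 and 10.68 in the mutant, a difference of -0.02 (95% interval -0.25 to 0.20). Its partner Col4a2 was at -0.12 (95% interval -0.41 to 0.17). In RefSeq the starts of this pair lie on opposite strands, 21 bases apart, placed so that the transcripts overlap at their 5' ends. Col4a5 had log2 signals of 8.94, 9.07, 8.75, 8.76 and 8.94 in wild type and 8.39, 8.45, 8.60, 9.16 and 8.88 in the mutant. Mutant replicates 1, 2 and 3 lay below all wild-type arrays, yet the high-18S arrays gave 0.02 and the low-18S arrays -0.34, for a difference of -0.19 (SE 0.16). Col4a6 was at -0.12 (SE 0.14). Col4a3 and Col4a4, chains of the mature glomerular basement membrane, were dim. Col4a3 was at 0.44 (SE 0.44). Col4a4 had log2 signals of 3.74, 4.01, 4.97, 2.53 and 4.27 in wild type and 2.36, 2.21, 1.66, 3.09 and 5.25 in the mutant, a difference of -0.99 (SE 0.67). Mutant replicates 1, 2 and 3 lay below all wild-type arrays and mutant replicate 5 above them. The further probe sets of Col4a4 gave 0.36 and 0.50, so its sign was not shared between probe sets.

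Col18a1, the proteoglycan collagen from which endostatin is cut, had log2 signals of 9.92, 10.24, 10.34, 10.49 and 10.11 in wild type and 10.62, 10.67, 9.90, 9.95 and 9.91 in the mutant. The mutant arrays split, with replicates 1 and 2 above all wild-type arrays and the other 3 near the low end, and the difference was -0.01 (SE 0.20). Its relative Col15a1 was at -0.10 (SE 0.20), and Col7a1, the chain of anchoring fibrils, was at -0.08 (SE 0.27). The 8 endothelial markers, genes of a cell type rich in type IV collagen, were higher in 7 cases (median 0.12), with summed signals of 2587 to 3363 in wild type and 2516 to 3384 in the mutant. Markers of the ureteric bud epithelium had summed signals of 1725 to 2907 and 1233 to 3531, with 4 of 9 higher. The median of the bud list was -0.60 in high-18S arrays and 0.29 in low-18S arrays, and that of the basement membrane collagens -0.03 and -0.12. The genes with the smallest p in these lists were Cdh5, an endothelial cadherin, at 0.26 (SE 0.14) and Wnt11, a bud tip ligand, at 0.26 (SE 0.18). Their part in the type IV values was not tested. Of 6 further basement membrane proteins, such as nidogens and perlecan, none had an unadjusted p under 0.05 and the median was 0.03. Agrn had the smallest p, at 0.27 (SE 0.13, limma adjusted p = 0.923), or 0.11 averaged over its probe sets.

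In the network class 5 of 7 members were higher, with a median of 0.23 (0.09 in high-18S and 0.04 in low-18S arrays). Of the 7, 2 had an unadjusted p under 0.05 (28.6%, against 5.49% of all genes), both higher in the mutant. Col6a2 encodes a chain of type VI, which forms beaded microfibrils around cells. It had log2 signals of 8.15, 8.01, 7.99, 8.20 and 7.94 in wild type and 8.38, 8.45, 8.42, 8.66 and 8.43 in the mutant. The groups did not overlap. The mean went from 8.06 ± 0.11 (SD, n = 5) to 8.47 ± 0.11 (SD, n = 5), 1.33-fold higher (difference 0.41, SE 0.10, limma adjusted p = 0.532). The second probe set gave 0.12 (SE 0.15) with overlap, so the probe sets did not give the same size. Its partner chains had unadjusted p above 0.05, with Col6a1 at 0.23 (SE 0.19) and Col6a3 at -0.12 (SE 0.20). Col6a1 had log2 signals of 7.77, 7.99, 7.82, 7.78 and 7.45 in wild type and 7.90, 7.35, 8.16, 8.27 and 8.26 in the mutant. Mutant replicates 3, 4 and 5 exceeded all wild-type arrays, and mutant replicate 2 lay below them. High-18S arrays gave 0.55 and low-18S arrays 0.01. The dim Col6a4 and Col6a5 were at 0.31 and 0.05, and the second probe set of Col6a4 gave -0.56 (SE 0.88).

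Type VIII chains form a short-chain network known from vessels and the cornea. Col8a1 had log2 signals of 6.16, 6.71, 6.24, 7.02 and 6.91 in wild type and 7.62, 6.87, 6.93, 7.27 and 6.85 in the mutant. Mutant replicates 1 and 4 exceeded all wild-type arrays, and the other 3 lay within their range. The difference was 0.50 (SE 0.22, limma adjusted p = 0.905). Its second probe set gave 0.66 (SE 0.23) and the dimmest -0.09. The partner Col8a2 was dim and lay the other way, at -0.20 (SE 0.16).

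Among the other 11 chains 6 were higher and 5 lower (median 0.06). Col25a1 encodes a collagen that spans the cell membrane and is known from neurons. Its log2 signals were 9.21, 9.03, 8.81, 8.90 and 8.79 in wild type and 9.25, 9.41, 9.37, 9.66 and 9.60 in the mutant. The groups did not overlap, though mutant replicate 1 lay close above wild-type replicate 1. The mean went from 8.95 ± 0.17 (SD, n = 5) to 9.46 ± 0.17 (SD, n = 5), 1.43-fold higher (difference 0.51, SE 0.13, limma adjusted p = 0.532). A second, dimmer probe set gave 0.09 (SE 0.41). Of the neuron and neural crest markers 3 of 4 measured were higher, with summed signals of 380.9 to 620.9 in wild type and 545.4 to 813.1 in the mutant. Of these, Stmn2 differed by 0.67 (SE 0.19) and the dim Foxd3 by 0.99 (SE 0.32). Their part in the Col25a1 values was not tested.

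Col13a1, another collagen that spans the membrane and sits at cell adhesions, was the lower member. Its log2 signals were 7.34, 7.13, 6.61, 7.34 and 6.31 in wild type and 6.19, 6.42, 6.80, 6.29 and 6.17 in the mutant. Mutant replicates 1, 4 and 5 lay below all wild-type arrays, and the groups overlapped through wild-type replicates 3 and 5. The mean went from 6.94 ± 0.46 (SD, n = 5) to 6.37 ± 0.26 (SD, n = 5) (difference -0.57, SE 0.23, limma adjusted p = 0.880). The remaining membrane-spanning chains were Col23a1 at -0.10 (SE 0.21) and the dim Col17a1, a chain of hemidesmosomes, at -0.55 (SE 0.54). The further probe sets of Col23a1 gave 0.13 and 0.17, so its sign was not shared between probe sets.

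None of the collagens that attach to fibrils without forming them had an unadjusted p under 0.05 in this class. Col12a1 was at 0.06 (SE 0.25), Col14a1 at -0.08 (SE 0.16; -0.41 and -0.12 on further probe sets), Col16a1 at 0.24 (SE 0.23) and Col22a1 at 0.16 (SE 0.19). The dim Col19a1 and Col20a1 were at -0.26 (SE 0.56) and 0.715 (SE 0.46). The further probe sets gave 0.30 and 0.98 for Col19a1, and -0.59, -0.50 and 0.31 for Col20a1. In high-18S arrays Col20a1 was at -0.14 and in low-18S arrays at 1.29. Col26a1, a chain known from gonads, had log2 signals of 9.26, 9.24, 8.94, 9.44 and 9.08 in wild type and 8.78, 9.69, 9.34, 9.34 and 9.36 in the mutant. The mutant arrays held both the lowest and the highest value, with a difference of 0.11 (SE 0.17). Over all members, 27 had more than 1 probe set, and 24 of their 40 further probe sets had the sign of the brightest one.

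**Figure D3:**
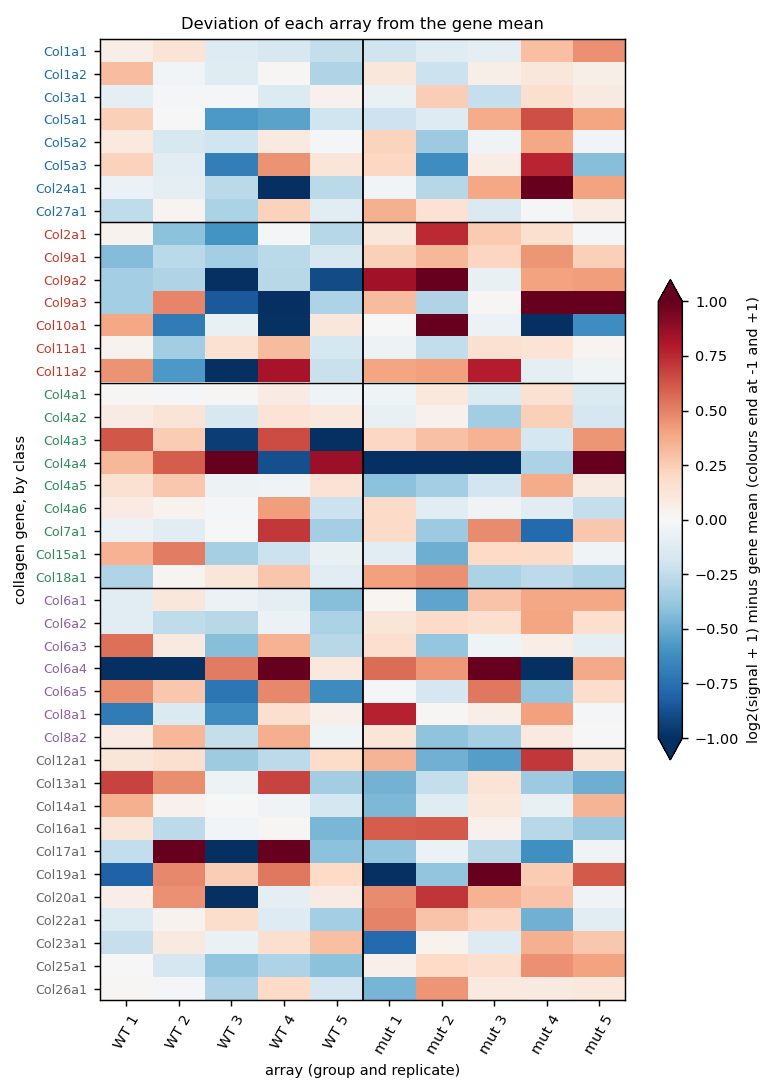
Deviation of each array from the mean of the gene, on the log2(signal + 1) scale, for the 42 collagen genes by class, with wild-type arrays (WT) left of the line and mutant arrays (mut) right of it. The rows of Col9a1 and Col6a2 change colour at the line, the rows of Col4a1 and Col4a2 are pale, and dim genes such as Col4a4 and Col6a4 vary between arrays of the same group.

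Array by array, the median deviation of the cartilage-associated class from the gene means was below 0 in wild-type replicates 2 to 5, from -0.60 in replicate 3 to -0.22 in replicate 5, and 0.03 in wild-type replicate 1. It was above 0 in every mutant array, from 0.02 in replicate 5 to 0.41 in replicate 2. The groups overlapped only in that wild-type replicate 1 lay just above mutant replicate 5. The fibrillar class had its highest median in mutant replicate 4, at 0.34, and its lowest in wild-type replicate 3, at -0.23. Wild-type replicate 3 was lowest for the collagens as a whole (median -0.22, against -0.05 over all genes), and it is one of the arrays with bright hybridisation controls. The other such array, mutant replicate 2, was at -0.09, and wild-type replicate 5, which is not one of them, at -0.18. Without wild-type replicate 3 and mutant replicate 2, 8 of the 42 members had an unadjusted p under 0.05, against 5.73% of all genes.

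Chains that meet in a trimer or a fibril were compared across the 10 arrays after removing the genotype means, in 14 pairs. Of these 10 had a Pearson r above 0, and none passed an exact permutation test of arrays within genotypes after adjustment over the pairs (smallest adjusted p = 0.418). Col4a1 and Col4a2 had the highest correlation, with r = 0.78 (exact permutation p = 0.0299, adjusted 0.418) and Spearman rho = 0.77 (exact permutation p = 0.0495, adjusted 0.614). Leaving out the arrays farthest from the median of Col4a1, mutant replicates 2 and 4, gave r = 0.57. Within the 18S sets r was 0.90, on fewer free values, since each genotype has only 2 high-18S arrays. Col8a1 and Col8a2 had r = 0.62 (exact permutation p = 0.0822), and Col6a2 and Col6a3 had r = 0.58 (exact permutation p = 0.101). Col1a1 and Col1a2 had r = 0.40 (exact permutation p = 0.241). The other type IV pairs lay below 0. Col4a5 and Col4a6 had r = -0.44 (exact permutation p = 0.162), or 0.02 within the 18S sets and 0.23 with the mean of probe sets. The dim Col4a3 and Col4a4 had r = -0.33 (exact permutation p = 0.284), or 0.02 with the mean of probe sets. The type IX pairs Col9a1 with Col9a2 and Col9a2 with Col9a3 had r = 0.07 and -0.17, with exact permutation p = 0.853 and 0.660. Col2a1 and Col9a1, both higher in the mutant, had r = 0.01 within genotypes (exact permutation p = 0.989), against 0.69 with the genotype means left in. The value depended on the setting, at 0.70 with the mean of probe sets, 0.35 within the 18S sets and 0.29 without mutant replicate 2 and wild-type replicate 1. Col9a1 with Col9a2 likewise went to 0.44 with the mean of probe sets.

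**Figure D4:**
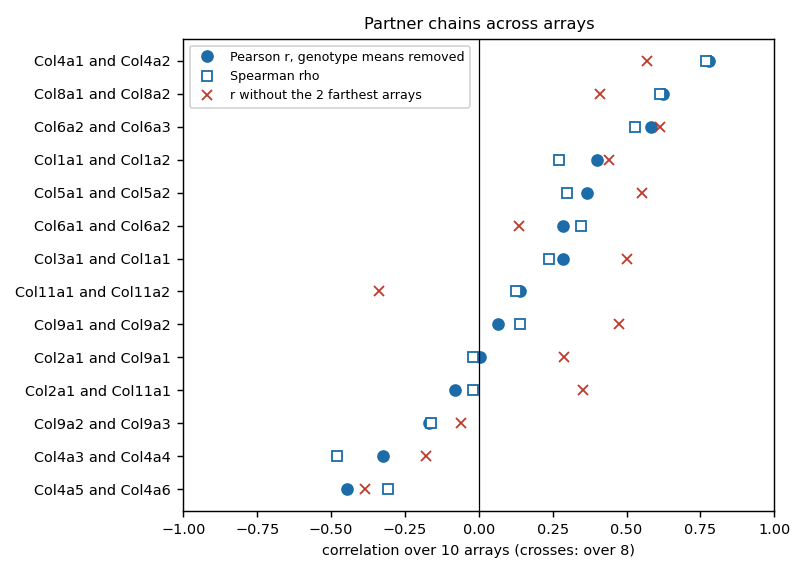
Correlation between partner chains over the 10 arrays for 14 pairs, with the genotype means removed, as Pearson r (filled circles), Spearman rho (squares) and Pearson r without the 2 arrays farthest from the median of the first chain (crosses). Col4a1 and Col4a2 lie highest, at r = 0.78, and the pairs of type IX chains lie at r = 0.07 and -0.17. The other type IV pairs lie below 0, at r = -0.44 and -0.33.

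Enzymes and chaperones that modify and fold collagen chains were measured for all 17 listed genes. Of these 15 were higher in the mutant (median 0.18), 2 at an unadjusted limma p under 0.05 (11.8%, against 5.49% of all genes). P3h3, a member of the prolyl 3-hydroxylase family, went from 8.16 ± 0.20 (SD, n = 5) to 8.46 ± 0.08 (difference 0.30, SE 0.12, limma adjusted p = 0.880). Crtap, a partner of the prolyl 3-hydroxylase complex, differed by 0.22 (SE 0.10, limma adjusted p = 0.902). Serpinh1, the collagen chaperone HSP47, was at 0.21 (SE 0.17; 0.10 averaged over its probe sets).

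Of 10 measured genes for procollagen cleavage and crosslinking 7 were higher (median 0.07; 0.17 in high-18S and -0.02 in low-18S arrays), and 3 had an unadjusted p under 0.05 (30.0%, against 5.49% of all genes). Loxl3, a lysyl oxidase that crosslinks collagen, went from 7.95 ± 0.14 (SD, n = 5) to 8.30 ± 0.05 without overlap (difference 0.36, SE 0.10, limma adjusted p = 0.663). Adamts3, a procollagen N-proteinase, differed by 0.53 (SE 0.22, limma adjusted p = 0.881), or by 0.07 averaged over its probe sets. The dim Pcolce2, an enhancer of procollagen cleavage, was lower, at -1.15 (SE 0.43), or -0.58 with a pseudocount of 16, with -2.07 in high-18S and -0.54 in low-18S arrays. Of 13 genes for collagen breakdown 9 were higher (median 0.23), and 2 had an unadjusted p under 0.05 (15.4%, against 5.49% of all genes). These were the uptake receptor Mrc2 at 0.41 (SE 0.15) and Fap, a protease of the fibroblast surface, at -0.52 (SE 0.22). None of the 8 measured collagen receptors was at that threshold, and 7 of them were higher (median 0.11). Gp6, the dim platelet receptor, had the smallest p, at 0.43 (SE 0.20), with -0.05 in high-18S and 0.75 in low-18S arrays. Of 11 fibril-associated glycoproteins and proteoglycans 8 were higher (median 0.15), and 2 had an unadjusted p under 0.05 (18.2%, against 5.49% of all genes). Postn, a matrix protein that binds collagen fibrils, differed by 0.50 (SE 0.17, limma adjusted p = 0.785) and Thbs2 by 0.46 (SE 0.21).

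Markers of the stroma, the main source of fibrillar collagen in the kidney, were higher in 5 of 7 cases (median 0.18), with summed signals of 11210 to 13740 in wild type and 10810 to 15870 in the mutant. Pdgfra differed by 0.36 (SE 0.11, limma adjusted p = 0.691) without overlap, or by 0.18 averaged over its probe sets, and Tbx18 by 0.46 (SE 0.16). Smooth muscle markers were higher in 3 of 6 cases, with Acta2 at -0.37 (SE 0.39; 0.13 averaged over its probe sets) and summed signals of 1911 to 2906 and 1392 to 3901. Macrophage markers were higher in 6 of 6, with C1qa at 0.73 (SE 0.27) and summed signals of 1020 to 1592 and 973.4 to 2076. Among nephron progenitor genes, Itga8 differed by -0.77 (SE 0.15), Gdnf by -1.12 (SE 0.23), Cited1 by -1.11 (SE 0.26) and Eya1 by -0.73 (SE 0.20), with no overlap in any of these. In 5 of the 8 listed, every mutant array lay below every wild-type array, which held for 0.555% of all genes. An unadjusted limma p under 0.05 was found for 7 of the 8 (87.5%, against 5.49% of all genes). The part of these cell types in the collagen values was not tested.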

How the data were processed

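Each of the 10 Affymetrix mouse arrays received biotin-labelled cRNA from about 1 ug of total RNA of 1 pool, per the labels' protocols. The authors deposited linear intensities per probe set. Their trimmed mean, without 2% of values at either end, was 250.0 on every array, which shows a scaling done beforehand. The sources used here do not name the summarising software. Array medians in log2(signal + 1) were 5.99 to 6.30, a range under the 0.5 set for normalizing, so none was done. Adding a pseudocount shrinks the fold of dim signals by construction, more so with 16 than with 1.

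From 45101 probe sets 64 controls were removed. A single gene symbol stood on 34945, for 18193 genes, with symbols updated through RefSeq (GRCm38.p6) gene identifiers. The genotypes were compared in limma 3.58.1 (R 4.3.3; lmFit, eBayes, two-sided), adjusted by Benjamini-Hochberg over all genes, with scripts tested on simulated data. Single probe sets were fitted over all 34945. Partner chains used all 14400 arrangements within genotypes, two-sided. The number of arrays limits precision. Replicate numbers follow accession order and pair nothing.

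Members, classes, lists, tests and alternatives were chosen with earlier results of these data known. Array values are printed for the 2 brightest members of each class, the 2 with the smallest p and any with an unadjusted p under 0.05. Of other lists, up to 4 genes under that p are named, or the one with the smallest p. Outside this rule Sox9, Acan, Comp, Nkx3-2, Matn3, Serpinh1, Six2 and Foxd1 were named with their values known. Alternatives covered probe-set choice, dim genes, scaling, moderation, array weights, a pseudocount of 16, blocks, 18S sets and single arrays left out. Leaving out both arrays with bright hybridisation controls was added after seeing the data.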

Additional observations from a re-analysis of the deposited data

Results flagged for a closer look

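For the 42 collagen genes, the 84 sets of 5 arrays of one genotype were searched for a single array far from the other 4, relative to the range of the set. By chance about 1 set in 20 stands out, which makes 4.2 of 84, and 8 stood out. Their causes were not tested.

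In mutant replicate 2, Col1a2 read 11.82 in log2 signal while the remaining mutant arrays read 12.09 to 12.15, and the dim Col10a1 read 5.80 while the rest read 1.88 to 2.88. Mutant replicate 4 was highest for Col6a2 (8.66, the rest 8.38 to 8.45) and lowest for the dim Col6a4 (3.46, the rest 5.43 to 6.08). Wild-type replicate 3 was lowest for Col4a2 (9.71, the rest 9.95 to 10.01) and for the dim Col20a1 (2.94, the rest 5.14 to 5.69). Col24a1 read 5.41 in wild-type replicate 4 (the rest 6.35 to 6.57). The dim Col19a1 read 3.78 in wild-type replicate 1 (the rest 4.79 to 5.12).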

How the results depend on the processing

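The count of 9 collagen genes with an unadjusted limma p under 0.05 was 4 within the low-18S arrays and 5 to 10 on leaving out each array, lowest without mutant replicate 4. In the other settings it was 6 to 10, and with the replicate block by title wording it was 9. The median difference of 0.08 ran from 0.05 to 0.12 on leaving out each array and was 0.03 in low-18S arrays, where all genes had 0.05. Over all genes the limma count after adjustment was 1, with 999 at an unadjusted p under 0.05. It was 0 with the mean of probe sets (1009 unadjusted), the title block (1116), the 18S block (1206), high-18S arrays (1093), low-18S arrays (835) and without both arrays with bright hybridisation controls (1043, added after seeing the data). It was 6 without the dimmest 40% of genes, 10 with trend and robust moderation and 0 to 2 on leaving out each array. High-18S arrays alone turned the unadjusted split of higher against lower genes from 620 and 379 to 467 and 626. The sign held in every setting run for 20 of the 42 members. Col1a2 was at -0.0822 in low-18S arrays and -0.0473 on its dimmest probe set. In high-18S arrays Col4a1 was at 0.0342, Col4a4 at 0.0309 and Col4a5 at 0.018, and Col4a4 was at 0.36 and 0.50 on further probe sets. Col18a1 was at 0.0203 with the mean of probe sets, 0.0007 with quantile normalization, 0.148 in low-18S arrays and 0.0494 on its second probe set. Col8a1 was at -0.09 on its dimmest probe set. Col26a1 was at -0.0474 with the mean of probe sets, -0.05 without the arrays with bright controls and -0.21 on its second probe set. On leaving out each array, Col1a2 ran from -0.0178 to 0.135, Col4a1 from -0.0637 to 0.0108 and Col18a1 from -0.123 to 0.069. The cause was not tested. Dim signal limits 12 members.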
